A study of Drosophila melanogaster with 2 samples.

Results

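Small nucleolar RNA (snoRNA) genes of Drosophila melanogaster, and the genes in which they lie, were set against chromatin occupancy of the homeodomain protein OdsH. All 269 genes annotated as snoRNA genes on the 6 chromosome arms were taken, out of 18164 annotated genes on those arms (transposable elements left out). By their names 117 were C/D box genes and 120 were H/ACA box genes, and the names of the other 32 gave neither class. A host was any gene that contains a snoRNA gene on the same strand. By that rule 247 snoRNA genes had a host, 12 of them had 2 hosts, and 22 had none, so that the set comprised 95 host genes. Chromatin immunoprecipitation and sequencing was done in 2 biological replicates of 1 group, whole wandering larvae of the third instar from a transgenic line that stably expresses OdsH with GFP fused to its C-terminus, precipitated with an antibody against GFP. Chromatin was sonicated to fragments of 200 to 800 bp. The larvae's sex was not recorded and their age was given as unknown. A whole larva holds many cell types, so a peak does not say in which cells the fusion protein sat, and the promoter that drives the transgene is not given in the sources used here. There was no second condition, and the control library was not analysed here.

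Box C/D snoRNAs guide 2′-O-methylation and box H/ACA snoRNAs guide pseudouridylation of ribosomal RNA, while the related scaRNAs guide the same modifications of spliceosomal small nuclear RNAs. Most fly snoRNAs are processed from introns, so their transcription starts at the promoter of the host gene. Many hosts encode ribosomal proteins or other parts of the translation machinery. Others, the U snoRNA host genes (Uhg), encode no protein and are known for the snoRNAs in their introns. OdsH is a homeodomain protein known for its part in hybrid male sterility between Drosophila species, and homeodomains as a class often bind DNA around a TAAT core.

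The sequences below, from the RefSeq Release 6 genome (the dm6 build), show the 2 kinds of site on which the results turn. The first set is the promoter, 80 bases before to 20 bases from the start site on, of 4 ribosomal protein hosts with a summit there: RpL14 (chr3L:8600926-8601025, plus strand), RpL23A (chr3L:1668635-1668734, minus strand), RpL28 (chr3L:3222941-3223040, minus strand) and RpS5a (chrX:17148245-17148344, minus strand). Capitals mark TTCTTT or CTCTTT within 20 bp of the start site on the coding strand. These letters are the core of the TCT initiator, a polypyrimidine start element known from ribosomal protein promoters.
RpL14: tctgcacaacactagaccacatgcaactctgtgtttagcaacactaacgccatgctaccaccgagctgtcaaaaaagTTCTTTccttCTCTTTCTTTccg
RpL23A: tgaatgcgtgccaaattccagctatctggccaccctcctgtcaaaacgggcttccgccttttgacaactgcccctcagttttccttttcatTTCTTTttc
RpL28: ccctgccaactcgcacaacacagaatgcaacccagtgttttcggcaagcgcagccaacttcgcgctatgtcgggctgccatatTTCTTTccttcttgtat
RpS5a: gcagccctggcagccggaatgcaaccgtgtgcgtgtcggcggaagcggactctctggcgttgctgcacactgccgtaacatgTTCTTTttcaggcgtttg

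The second set is the 101 bp around the strongest summit at 2 Uhg hosts and at 2 protein-coding hosts of H/ACA clusters: Uhg2 (chr2L:9895109-9895209, minus strand), Uhg8 (chr3L:20453126-20453226, plus strand), Arpc2 (chr2L:20416912-20417012, plus strand) and kra (chr3R:5601236-5601336, minus strand). Capitals mark TAAT or its reverse complement ATTA.
Uhg2: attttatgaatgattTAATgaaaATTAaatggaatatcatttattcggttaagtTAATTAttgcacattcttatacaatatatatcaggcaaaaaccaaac
Uhg8: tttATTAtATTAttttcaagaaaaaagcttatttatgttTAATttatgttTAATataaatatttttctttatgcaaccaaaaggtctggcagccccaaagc
Arpc2: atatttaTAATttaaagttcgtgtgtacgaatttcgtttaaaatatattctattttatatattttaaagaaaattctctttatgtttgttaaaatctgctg
kra: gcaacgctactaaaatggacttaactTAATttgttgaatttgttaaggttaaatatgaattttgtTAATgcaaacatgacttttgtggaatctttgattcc

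The last set is snoRNAs that lie in hosts with a start-site summit, shown for the boxes by which the 2 classes are told apart: snoRNA:U14:30Eb in Uhg2 (chr2L:9893946-9894026, minus strand), snoRNA:Me18S-U1356a in Uhg8 (chr3L:20454007-20454085, plus strand), snoRNA:U49:66Da in RpL14 (chr3L:8601473-8601552, plus strand), snoRNA:Psi28S-1192d in RpS5a (chrX:17143934-17144068, minus strand) and snoRNA:Psi18S-525a in Arpc2 (chr2L:20418348-20418481, plus strand). Capitals mark the C box TGATGA and the D box CTGA in the 3 box C/D snoRNAs and the ACA near the 3′ end in the 2 box H/ACA snoRNAs.
snoRNA:U14:30Eb: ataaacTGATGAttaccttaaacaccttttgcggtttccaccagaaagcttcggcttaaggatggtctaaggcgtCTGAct
snoRNA:Me18S-U1356a: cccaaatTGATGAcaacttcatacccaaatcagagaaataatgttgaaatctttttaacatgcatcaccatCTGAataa
snoRNA:U49:66Da: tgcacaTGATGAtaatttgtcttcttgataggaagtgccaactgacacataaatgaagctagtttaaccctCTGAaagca
snoRNA:Psi28S-1192d: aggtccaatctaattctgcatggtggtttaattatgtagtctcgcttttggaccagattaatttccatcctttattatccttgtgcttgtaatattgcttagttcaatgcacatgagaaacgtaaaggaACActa
snoRNA:Psi18S-525a: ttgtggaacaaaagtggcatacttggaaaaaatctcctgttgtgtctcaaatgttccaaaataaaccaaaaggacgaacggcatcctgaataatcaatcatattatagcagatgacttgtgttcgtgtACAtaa

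The class names matched these boxes in nearly all H/ACA genes but only in part of the C/D genes. Both TGATGA starting in the first 20 bases and CTGA ending in the last 20 were present in 79 of 117 C/D genes (67.5%) and in 0 of 120 H/ACA genes. An ACA in the last 10 bases was present in 116 of 120 H/ACA genes (96.7%) and in 7 of 117 C/D genes (5.98%). C/D genes had a median length of 80 bp and H/ACA genes of 140 bp. Of the 247 snoRNA genes with a host, 227 lay wholly in introns and 20 overlapped an exon of a host. The load was uneven: 56 hosts held 1 snoRNA gene each, while 15 hosts held 5 or more and together accounted for 133 of the 269 snoRNA genes (49.4%).

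Binding was read from peak lists on dm6. The thresholded list, in which peaks passed the authors' reproducibility threshold, held 7223 peaks, and a relaxed list of 30000 peaks, background included, existed for each replicate and for both pooled. Each peak has a summit and a signal value in the units of the authors' peak caller. The scale of these units is not stated, so signal served only to rank and describe peaks, and values are set side by side within 1 list. Sequencing depth is unknown for these lists. A host is called bound where a thresholded summit lay within 500 bp of any of its annotated start sites. Intervals are exact 95% Clopper-Pearson intervals that cover counting error over genes only. Hosts and snoRNA genes share summits and neighbours, so the genes are not independent.

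Hosts of snoRNA genes were bound more often than genes at large. A thresholded summit lay within 500 bp of a start site in 60 of 95 hosts (63.2%, interval 52.6 to 72.8), against 20.6% of all 18164 genes, 24.1% of 13945 protein-coding genes and 9.51% of 3261 noncoding RNA genes. Among small RNA genes outside the set the share was 9.31% of tRNA genes and 21.9% of snRNA genes. Of the protein-coding hosts 56 of 84 were bound (66.7%, interval 55.5 to 76.6). Of the noncoding hosts 4 of 11 were bound (36.4%, interval 10.9 to 69.2). CR33222, counted among these 4, is annotated as a pseudogene, while the 9.51% covers noncoding RNA genes only. Its summit is the one also counted for RpS6, whose start is nearer. The summit of Uhg2, also among the 4, lies nearer to the start of Bka. The pooled relaxed list, which is more permissive, had a summit at 81 of 95 hosts (85.3%) against 46.3% of all genes, 51.4% of protein-coding genes and 30.2% of noncoding RNA genes. In all 60 bound hosts a transcript that begins at the bound start spans a snoRNA gene. For hosts with a single start site this follows from the definition of a host, and it was not counted for unbound hosts.

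Many host starts lie close to the start of another gene, whose summit is then counted for both. A summit at a host start with no other gene start within 500 bp was present in 30 of 95 hosts (31.6%, interval 22.4 to 41.9), against 9.6% of all genes and 11.1% of protein-coding genes under the same restriction. Of the 47 hosts with no other gene start within 500 bp of any of their own, a set chosen after the values were seen, 27 were bound (57.4%, interval 42.2 to 71.7), against 13.5% of 11582 such genes and 15.1% of such protein-coding genes.

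**Figure D1:**
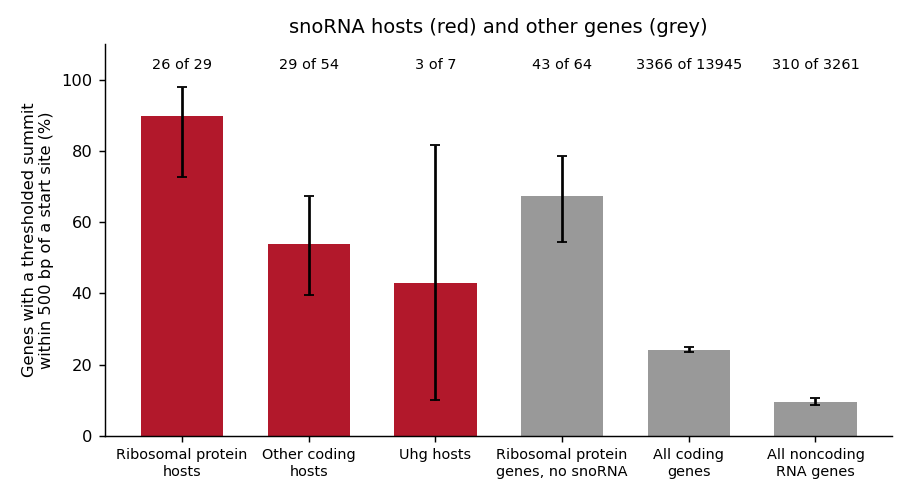
Share of genes with a thresholded summit within 500 bp of a start site, in percent, for 3 kinds of snoRNA host (red) and for genes at large (grey), with exact 95% Clopper-Pearson intervals and counts above the bars. Ribosomal protein hosts stand highest at 89.7%, and all protein-coding genes are at 24.1%.

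Ribosomal protein genes made up 29 of the hosts, and 26 of them were bound (89.7%, interval 72.6 to 97.8). Ribosomal protein genes that host no snoRNA were bound in 43 of 64 cases (67.2%, interval 54.3 to 78.4). The 2 intervals overlap, and protein-coding genes that are neither hosts nor ribosomal protein genes stood at 23.7%. The other protein-coding hosts, eEF1alpha1 apart, were bound in 29 of 54 cases (53.7%, interval 39.6 to 67.4). The lower bound of that interval lies above the 24.1% of all protein-coding genes. eEF1alpha1, which encodes a translation elongation factor, was bound as well.

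A gene with more start sites has more chances of a nearby summit, so the counts were also split by start sites, a split chosen after the values were seen. Protein-coding hosts had a median of 2 start sites and protein-coding genes of 1. Among hosts with a single start site 24 of 40 were bound (60.0%, interval 43.3 to 75.1), against 18.3% of protein-coding genes with a single start site. Without the ribosomal protein genes 12 of 27 such hosts were bound (44.4%, interval 25.5 to 64.7). With 2 or more start sites 32 of 44 hosts were bound (72.7%), against 40.2% of protein-coding genes.

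Signal at the bound hosts was near that of bound genes at large. The strongest thresholded summit at the 60 bound hosts had a median pooled signal of 222 (quartiles 153 and 375, range 113 to 1363). All 3741 genes with a start-site summit had a median of 208, and all 7223 thresholded peaks had a median of 188. Bound ribosomal protein hosts had a median of 258 (n = 26), bound other protein-coding hosts 208 (n = 29), and bound ribosomal protein genes without a snoRNA 217 (n = 43). Only 4 of the 60 bound hosts were among the 500 strongest peaks, and the median rank was 2810.5 of 7223.

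**Figure D2:**
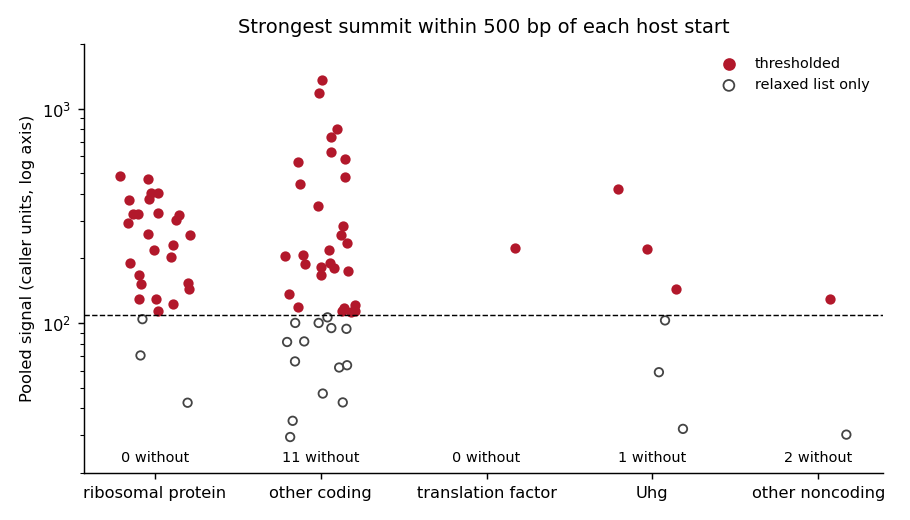
Pooled signal (caller units, log axis) of the strongest summit within 500 bp of a start site of each host, by kind of host, with filled points for thresholded summits and open points for summits in the relaxed list only. The dashed line is the lowest thresholded signal, 109, and the numbers at the bottom count hosts with no pooled summit.

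The 12 hosts with the strongest summits had varied functions, and only RpL14 and RpL23A among them encode ribosomal proteins. Msp300, a nesprin-like protein that anchors muscle nuclei, had the strongest summit, with a signal of 634 in replicate 1, 753 in replicate 2 and 1363 in the pooled list. It ranked 76 of 7223 and lay 335 bp upstream of a start site. Stt3A, the catalytic subunit of oligosaccharyltransferase, followed with 525 and 671 in the replicates and 1186 pooled. That summit lay 391 bp upstream of Stt3A but nearer to the start of the neighbouring gene bves, so it cannot be assigned to Stt3A by position. CG1142 followed with 331 and 478 in the replicates and 805 pooled. The zinc-finger transcription factor gene lola had 324 and 401, and 737 pooled. Dys, the fly dystrophin, had 279 and 362, and 629 pooled.

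In pAbp, which encodes the poly(A)-binding protein, the replicates gave 227 and 356 and the pooled list 583. Its summit lay 479 bp downstream of the start site, inside the transcribed region. CG12316 gave 235 and 322, and 564 pooled. drn gave 228 and 244, and 478 pooled. Irbp, the fly Ku70 DNA-repair protein, gave 211 and 243, and 445 pooled, and its summit lay 30 bp upstream of the start. Each of these hosts had a summit in both replicates, with the higher signal in replicate 2.

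The ribosomal protein hosts were closely alike in where the summit lay. Summit position, base composition and motifs were not counted for ribosomal protein genes that host no snoRNA. These traits, given here and below, are therefore not shown to be particular to ribosomal protein genes that are hosts. RpL14, the strongest of them, had 209 in replicate 1, 280 in replicate 2 and 486 pooled, 53 bp upstream of its start. RpL23A had 208 and 261, and 470 pooled, 75 bp upstream. RpL28 had 180.4 and 218, and 405 pooled, 70 bp upstream. The promoters of these 3 large-subunit protein genes are printed above. RpL13A, of the same subunit, had 195 and 215, and 405 pooled. Over the 26 bound ribosomal protein hosts pooled signal ran down to 113 in RpL10Ab.

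The 3 ribosomal protein hosts that were not bound still had weak summits. RpS12 had 30.9 and 76.6 in the replicates and 104 pooled, 43 bp upstream of its start, just under the lowest thresholded signal. RpL15 had 24.9 and 39.2, and 70.6 pooled. RpL5 had 16.0 and 32.6, and 42.5 pooled. Every ribosomal protein host therefore had a pooled relaxed summit within 500 bp of a start site.

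The strongest summit lay 43 bp upstream of the start site in the median bound ribosomal protein host (quartiles 72.25 and 11.25 bp upstream). In 23 of these 26 (88.5%, interval 69.8 to 97.6) it was within 100 bp of the start. In the other bound protein-coding hosts the median was 145 bp upstream, and 9 of 29 (31.0%, interval 15.3 to 50.8) were within 100 bp. Over all bound protein-coding genes the median was 127 bp upstream and 33.7% were within 100 bp. Of all bound hosts 49 of 60 had the summit upstream of the start (81.7%), against 83.2% of bound protein-coding genes. The host start was the nearest start of any gene for 48 of the 60 summits. Annotated 5′ ends of snoRNA genes counted as starts here, so Sf3b3, whose nearest start is that of a snoRNA gene in its own intron, is not among the 48.

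**Figure D3:**
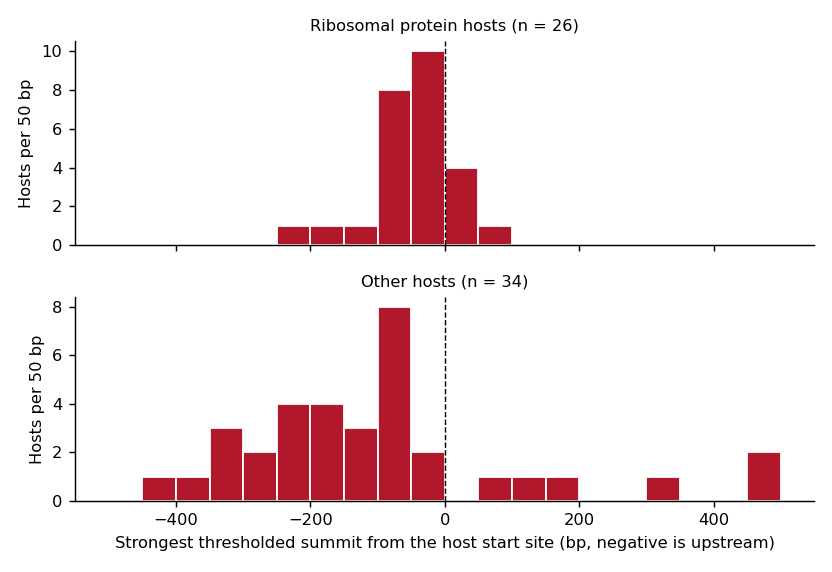
Distance of the strongest thresholded summit from the nearest start site of the bound host (bp, negative is upstream), in bins of 50 bp, for ribosomal protein hosts above and all other hosts below. Ribosomal protein hosts cluster at the start (median 43 bp upstream), while the other hosts spread over the whole window of 500 bp on either side.

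Summits at ribosomal protein hosts were also less A and T rich than the rest. In the 101 bp around the summit the median A+T content was 54.0% at 26 ribosomal protein hosts and 65.3% at 33 summits of other hosts. It was 67.3% over all 7223 thresholded summits and 65.3% over the 3135 within 500 bp of any start site. TAAT or its reverse complement was present at 13 of 26 ribosomal protein hosts (50%) and at 24 of 33 other host summits (72.7%). Its share was 75% of all thresholded summits and 71.9% of those near a start site. TAATTA, which contains TAAT, was present at 1 of 26 and 4 of 33, against 9.72% of all and 9.09% near a start site. TATCGATA, the DNA replication-related element read on both strands, was present at 4 of 26 ribosomal protein hosts (15.4%) and at 0 of 33 other hosts, against 1.11% of all thresholded summits and 2.39% of those near a start site. GGTCACACT, the M1BP motif, was present at 1 of 26 and 0 of 33, against 0.498% of all and 0.893% near a start site. TATAAA was present at 0 of 26 and 10 of 33 (30.3%), against 21.6% of all and 20.4% near a start site. A window with less A and T holds each A and T motif less often, so these shares are not independent of base composition.

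Matches to the TCT initiator core (TTCTTT or CTCTTT) were sought on the coding strand within 20 bp of the 5′ end of the gene. Their place within that window was not restricted, so a match is not shown to be an initiator. A match was present in 11 of 29 ribosomal protein hosts (37.9%) and in 8 of 55 other protein-coding hosts (14.5%), against 2.89% of all 13945 protein-coding genes. Among bound hosts 16 of 60 had it (26.7%), and among unbound hosts 6 of 35 (17.1%). In a window of 250 bp before to 50 bp after the 5′ end of the gene, TATCGATA was present in 8 of 29 ribosomal protein hosts (27.6%) and 10 of 55 other protein-coding hosts (18.2%), against 9.36% of protein-coding genes. Its share was 20% in bound and 20% in unbound hosts. Bound was called at any start site, while these motifs were read at the 5′ end only. In hosts with several start sites the promoter read can therefore differ from the bound one.

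The 7 Uhg genes, whose products are the snoRNAs, were split. Uhg4, which holds 7 snoRNA genes, had 187 in replicate 1, 236 in replicate 2 and 420.1 pooled, 76 bp upstream of its start. Uhg2, with 4 snoRNA genes of which U14 is printed above, had 85.9 and 135, and 220.5 pooled, 156 bp upstream. That summit lies nearer to the start of the neighbouring gene Bka. Uhg8, with 3 snoRNA genes, had 72.9 and 74.7, and 144 pooled, 117 bp upstream. The printed Uhg2 and Uhg8 windows hold 4 matches to TAAT or ATTA each, at 78.2% and 76.2% A+T.

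The other 4 Uhg genes had no thresholded summit at the start. Uhg5, with 11 snoRNA genes, came closest at 58.9 and 49.4 in the replicates and 103 pooled. Uhg3, with 3 snoRNA genes, had 22.7 and 31.5, and 59.0 pooled. Uhg1, with 16 snoRNA genes, had 24.5 in replicate 1, none in replicate 2 and 32.1 pooled. Uhg7 had no summit in any list, but its 4 snoRNA genes also lie in RpL23A, which was bound. The 2 most loaded Uhg genes were thus among the unbound ones, and of the 48 snoRNA genes that lie in a Uhg gene 18 had a bound host (37.5%). Uhg1 and Uhg5 were the 2 Uhg genes with a match to the TCT initiator core near the 5′ end.

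Of the 15 hosts of 5 or more snoRNA genes 11 were bound (73.3%, interval 44.9 to 92.2) and of the 24 hosts of 2 to 4 snoRNA genes 20 were bound (83.3%, interval 62.6 to 95.3), against 29 of 56 hosts of a single snoRNA gene (51.8%, interval 38.0 to 65.3). The share thus did not rise steadily with the number of snoRNA genes, and the 3 intervals overlap. Arpc2, a subunit of the actin-nucleating Arp2/3 complex, holds 17 H/ACA genes, the most of any host. It was the weakest bound host, with 33.0 in replicate 1, 85.4 in replicate 2 and 113 pooled, 95 bp upstream of its start and nearer to the start of CG10949. RpS5a, a small-subunit ribosomal protein gene with 14 H/ACA genes, had 70.7 and 132, and 191 pooled, 56 bp upstream. dom, an ATPase that remodels chromatin, holds 15 snoRNA genes and had 89.7 and 98.3, and 182 pooled, 473 bp downstream of its start. The translation regulator kra, with 8 H/ACA genes, had 75.3 and 128, and 206 pooled, 150 bp upstream and nearer to the start of SecS.

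Sf3b3, a subunit of the splicing factor SF3b, holds 9 snoRNA genes and had 54.5 and 61.2 in the replicates and 114 pooled, 161 bp downstream of a start. That summit lay 15 bp from the 5′ end of snoRNA:Psi18S-1086. This snoRNA gene lies in an intron of Sf3b3 on the same strand and begins 176 bp downstream of the host start. Nop60B, with 7 snoRNA genes, had 48.5 and 72.5, and 117 pooled. Hrb98DE, an hnRNP protein that regulates splicing, has 7 H/ACA genes and had 39.2 and 76.4, and 122 pooled. RpS7, also with 7 H/ACA genes, had 71.4 and 89.0, and 167 pooled. RpS16, with 5, had 122 and 200.1, and 318 pooled. Among the 11 bound hosts of 5 or more, Uhg4, RpL28 and RpS16 were the 3 strongest, and the other 8 had a pooled signal between 113 and 206. CG10576 and lncRNA:CR45184, with 5 snoRNA genes each, had no summit in any list, although the 5 of lncRNA:CR45184 also lie in Sf3b3.

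**Figure D4:**
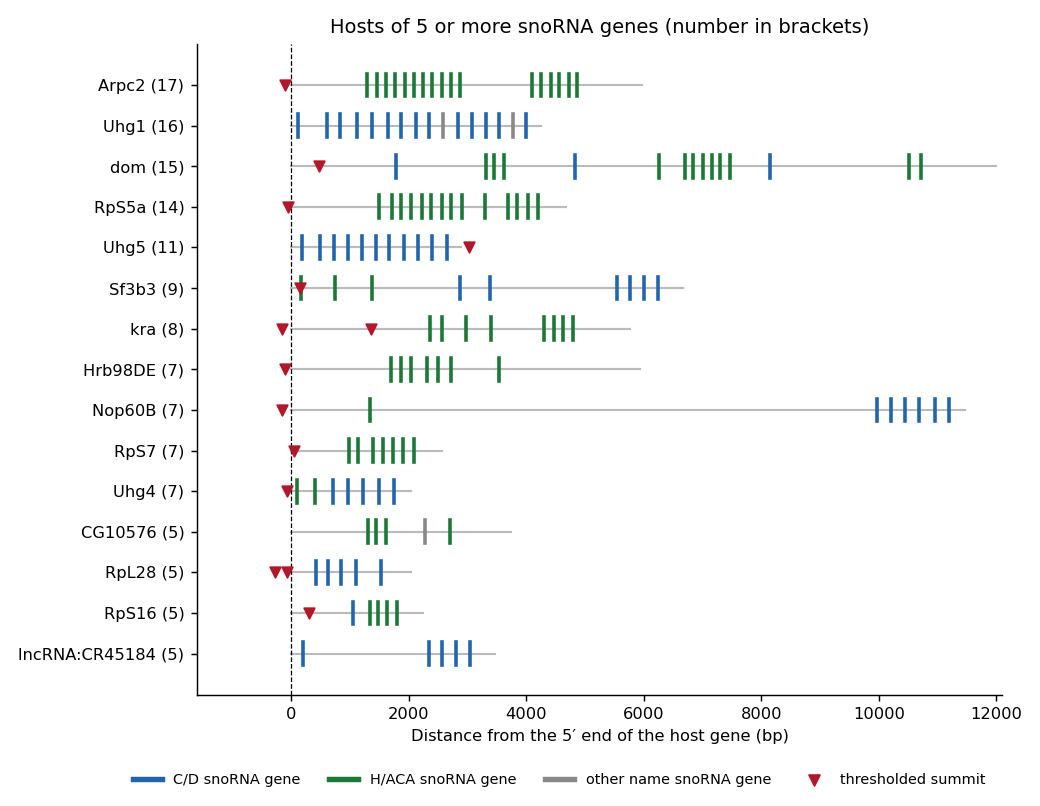
Map of the 15 hosts of 5 or more snoRNA genes, aligned at the 5′ end of the gene (distance in bp, grey line the gene, drawn to 12000 bp), with C/D genes in blue, H/ACA genes in green, other names in grey and thresholded summits as red triangles (from 1500 bp upstream to 500 bp past the gene). In the span drawn, the summits sit within 500 bp of the 5′ end in every host that has one, except for Uhg5, whose summit lies past its 3′ end, and a further summit inside kra.

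H/ACA genes lay in bound hosts more often than C/D genes did, but the 2 classes were close when hosts were counted. The host was bound for 183 of the 247 snoRNA genes with a host (74.1%), for 100 of 111 H/ACA genes (90.1%) and for 66 of 107 C/D genes (61.7%). The hosts of H/ACA clusters weigh heavily in this count, since Arpc2, RpS5a, kra, RpS7 and Hrb98DE were all bound, while Uhg1 and Uhg5, which carry mainly C/D genes, were not. Counted by host, 20 of 28 hosts of H/ACA genes alone were bound (71.4%, interval 51.3 to 86.8) and 22 of 37 hosts of C/D genes alone (59.5%, interval 42.1 to 75.2), and the intervals overlap. Within ribosomal protein hosts the counts were 12 of 13 for H/ACA alone and 11 of 13 for C/D alone. All 6 hosts that hold both classes were bound. Of the scaRNA genes with a host 7 of 14 had a bound one (50%). These splits by content were chosen after the values were seen.

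How the snoRNA genes themselves compared with other genes depended on the distance allowed. A thresholded summit lay within 1 kb of the start of 59 of 269 snoRNA genes (21.9%, interval 17.1 to 27.4), against 23.4% of all genes and 25.9% of protein-coding genes. Within 500 bp the count was 22 of 269 (8.18%, interval 5.20 to 12.1), below the 18.4% of all genes. Within 2 kb it was 129 of 269 (48.0%, interval 41.9 to 54.1), above the 30.7% of all genes. At 1 kb the share was 32 of 117 for C/D genes (27.4%, interval 19.5 to 36.4) and 17 of 120 for H/ACA genes (14.2%, interval 8.47 to 21.7). Among tRNA genes it was 17.2% and among snRNA genes 25.0%. The 59 genes shared 40 distinct strongest summits, so they are not 59 separate sites. The strongest summit lay upstream of the snoRNA start in 51 of the 59 (86.4%), at a median of 585 bp upstream.

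Most of the summits near a snoRNA gene were those of the host start. Of the 59 genes 41 had a summit within 1 kb that also lay within 500 bp of a host start, 11 had a host but no such summit, and 7 had no host. The median snoRNA gene began 1465 bp downstream of a host start. Among the 84 that began within 1 kb of it, 40 of 63 had a summit where the host was bound (63.5%, interval 50.4 to 75.3) and 0 of 21 where it was not (interval up to 16.1%). Both measures count the same summits, so this is a description of position. Among the 163 that began further away the counts were 8 of 120 (6.67%) with a bound host and 4 of 43 (9.30%) with an unbound one. The scaRNA gene MeU5-C46 in CG1142, 723 bp from that summit, and the U49 pair in RpL14, 520 and 995 bp from theirs, are examples of snoRNA genes near a strong host summit.

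Exactly 1 of the 7223 thresholded summits fell inside a snoRNA gene. It lay in snoRNA:Me18S-C1968, named for guiding methylation of 18S ribosomal RNA, in the host Swim, 42 bp from the snoRNA start. Its signal was 74.8 in replicate 1, 45.9 in replicate 2 and 125 pooled. The snoRNA genes cover 32160 bp, or 0.0240% of the arms, which by length alone would hold 1.74 thresholded summits. The relaxed pooled list had 8 summits inside snoRNA genes, where length alone would give 7.21.

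The 11 genes with a host whose nearby summit was not at a host start were of several kinds. In Uhg5 the last 3 snoRNA genes, snoRNA:Me28S-G2703b, snoRNA:Me28S-G2703c and snoRNA:Or-CD4, lay 865, 622 and 376 bp before a summit past the end of the gene, with 87.2 and 115 in the replicates and 203 pooled. snoRNA:hts-a had a summit of 149 pooled, with 52.4 and 84.5 in the replicates, which lay 31 bp from the start of a tRNA gene. snoRNA:Me28S-A1322 in eEF1alpha1 had 65.3 and 91.1, and 159 pooled.

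Of the 22 snoRNA genes without a host 7 had a summit within 1 kb (31.8%, interval 13.9 to 54.9), against 23.4% of all genes. The 7 rest on 3 summits and all lay on arm 2R, which holds 12 of the 22. The strongest was at snoRNA:185 (dm6 chr2R:19727098-19727152, minus strand), with 179 in replicate 1, 188 in replicate 2 and 362 pooled, 153 bp upstream. The other 6 shared 2 summits. scaRNA:MeU1b-A234, snoRNA:Or-ACA6 and snoRNA:Or-CD13 lay about a summit of 157 pooled, with 70.5 and 80.8 in the replicates. snoRNA:Psi28S-1153 and 2 neighbours that are named only by position lay downstream of a summit of 147 pooled, with 70.8 and 74.5. The 3 genes for U3, which takes part in cutting the ribosomal RNA precursor and is transcribed from its own promoter, had no thresholded summit. snoRNA:U3:54Ab had 41.8 and 20.5 in the replicates and 51.3 pooled, snoRNA:U3:54Aa 31.5 pooled, and snoRNA:U3:9B none.

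Genes for the proteins that assemble with snoRNAs were bound in 8 of 18 cases (44.4%, interval 21.5 to 69.2), against 24.1% of protein-coding genes. Among the C/D core proteins nop5, itself a snoRNA host, had 94.7 and 91.2 in the replicates and 189.5 pooled. The methyltransferase gene Fib, also a host, had no thresholded summit, with none in replicate 1, 54.4 in replicate 2 and 66.2 pooled. Nop56 and hoip were also unbound, at 77.1 and 33.3 pooled. Among the H/ACA core proteins the pseudouridine synthase gene Nop60B, a host as above, and NHP2, with 96.1 and 131 and 239.5 pooled, were bound. Nop10 was not, at 58.7 pooled, and Gar1 had no summit in any list.

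Assembly factors had the strongest summits of the list. pont, an AAA+ ATPase, had 218 in replicate 1, 311 in replicate 2 and 535 pooled, 149 bp upstream of its start. Its partner rept had 102 and 131, and 243 pooled. Pih1D1, of the same assembly complex, had 182 and 322, and 493 pooled, while spag had 35.1 and 51.7, and 85.6 pooled. Nufip, at 51 and 57.9 in the replicates and 106 pooled, fell just under the threshold. CG10341 and CG10055 had no pooled summit. In the nucleolus and Cajal body, where snoRNAs and scaRNAs mature, Nopp140 had 81.2 and 146, and 232 pooled, coil had 92.5 and 93.6, and 182 pooled, and WDR79 had none.

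Nearly all bound hosts had a relaxed summit in both replicates, with a modest offset between the replicates. Of the 60, 59 had a relaxed summit within 500 bp of a start site in each replicate. The exception was dmt, with 76.5 in replicate 1, none in replicate 2 and 187 pooled. Thresholded peaks had already passed the authors' reproducibility threshold, so this count was largely fixed by the call. Of all 7223 thresholded peaks 7173 had a partner in both replicate lists. Signal ran from 33.0 to 634 in replicate 1 (median 113, n = 60) and from 40.8 to 753 in replicate 2 (median 118, n = 59). The log2 ratio of replicate 2 over replicate 1 had a median of 0.33 (SD 0.43, n = 59) and was above 0 at 47 of 59 hosts. Each host's strongest summit was taken in each replicate separately. The 2 values can thus come from different summits, as in eEF1alpha1, skd and hts. Over all thresholded peaks with a partner within 200 bp in both lists, a different rule, the median was 0.26 (SD 0.45, n = 7173). The difference between these medians was not tested.

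**Figure D5:**
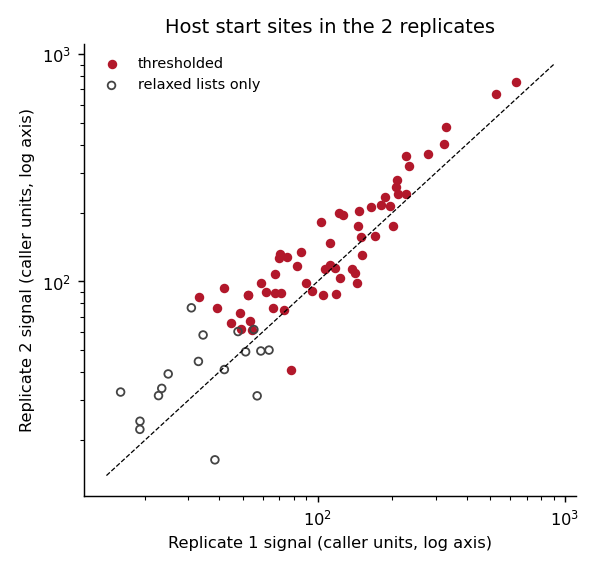
Signal of the strongest relaxed summit within 500 bp of a start site of each host in replicate 1 (horizontal) and replicate 2 (vertical), both in caller units on log axes, for hosts with a summit in both lists. Filled points are bound hosts, open points hosts with relaxed summits only, and most filled points lie above the dashed line of equal signal (47 of 59).

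The threshold passed through a continuous range of hosts. Just inside it were Arpc2 and RpL10Ab, both at 113 pooled, and kis, a chromatin remodeller, at 114. Just outside were tra2, a splicing regulator of the sex determination pathway, at 106, RpS12 at 104 and Uhg5 at 103. The lowest thresholded signal was 109. Of the 35 unbound hosts 21 had a pooled relaxed summit (median 66.2) and 9 had no summit in any of the 3 relaxed lists.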

How the data were processed

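The authors' deposited files are narrowPeak lists from OdsH-GFP immunoprecipitation in 2 replicates of 1 group, called against a control library per the file listings. Aligner and caller: not given in the sources used here. Each peak carries a signal value, deposited by the authors with no stated scale, and a −log10 q-value, deposited likewise, which reaches a ceiling of 4.12 shared by 90.5% of thresholded peaks and was not used for ranking. The 7223 thresholded peaks were the 7223 of highest signal in the pooled list, so replicates differ only in their own lists. The dm3 lists were left out, since no dm3 annotation was at hand.

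Summits (start plus offset, written counting from 1) were set against the Ensembl BDGP6 annotation, release 115, which has the dm6 (Release 6) coordinates, and sequence was read from the RefSeq Release 6 genome; every peak lay within its arm. No promoter table was given, so promoters are RefSeq sequence at Ensembl start sites. No p-value was computed: with 1 group there is no comparison between conditions, and members, lists and motifs were chosen with earlier results of these data known. Named genes were the 12 hosts with the strongest summit, every Uhg host, every host of 5 or more snoRNA genes, the 5 strongest snoRNA genes without a host (here extended to the 7 that had a summit), 3 hosts on either side of the threshold and the snoRNP list. Other genes were named after their values were seen. The nearby summit of 1 host is not reported here. The replicates are labelled as biological replicates. Alternatives changed the distance, the start sites used, the strand rule, the list and the replicates. Counting was tested on simulated data. Intervals came from scipy 1.17.1 and figures from matplotlib 3.10.9, with pandas 2.3.3 and numpy 2.4.6 under Python 3.11.15.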

Additional observations from a re-analysis of the deposited data

How the results depend on the processing

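Of 43 alternatives 28 left a value within its margin and 15 moved it. A count was within its margin where the larger value was at most 1.5 times the smaller. For the median signal the margin was 7.87. Raw counts were compared even where the number of genes differed, as in 27 of 47 against 60 of 95. A shorter list cannot raise a count, and the pooled relaxed list, which holds every thresholded peak, cannot lower one. The direction of those changes was thus fixed beforehand. With the stronger part of the thresholded list (3611 peaks) bound hosts numbered 38 instead of 60, protein-coding hosts 36 instead of 56, noncoding hosts 2 instead of 4, snoRNA genes with a bound host 100 instead of 183, snoRNA genes near a summit 35 instead of 59, and summits inside a snoRNA gene 0 instead of 1; protein-coding genes at large stood at 13.7%. With the pooled relaxed list the noncoding hosts numbered 8 of 11 (30.2% of noncoding RNA genes), snoRNP genes 14 of 18 (51.4% of protein-coding genes), snoRNA genes near a summit 131 of 269 (48.7%, against 52.7% of all genes) and summits inside a snoRNA gene 8 (7.21 by length alone). A distance of 500 bp gave 22 snoRNA genes near a summit (8.18%, against 18.4% of all genes) and 2 kb gave 129 (48.0%, against 30.7%). Counting only hosts with no other gene start within 500 bp gave 30 bound hosts near the bound start (31.6%, against 9.6% of all genes) and, an alternative chosen after seeing the data, 27 of 47 near any start (57.4%, against 13.5%). The cause of each change was not tested. To leave out 1 replicate, the 7223 strongest peaks of the other replicate's relaxed list were used, without a new reproducibility threshold. On each of these lists protein-coding genes at large stood at 24.0%. They gave 56 to 61 bound hosts, 52 to 57 protein-coding and 4 to 4 noncoding hosts, and 162 to 185 snoRNA genes with a bound host. Further counts were 61 to 62 snoRNA genes near a summit, 7 to 8 snoRNP genes and 0 to 1 summits inside a snoRNA gene. The 0 came without replicate 1. Without replicate 1, 58 of the 60 bound hosts remained. Without replicate 2, 52 remained, and Arpc2, CR33222, Hrb98DE, Nop60B, RpL10Ab, RpL27A, RpS6 and kis were lost. On both of these lists 50 of the 60 were kept. Median signal at bound hosts has no value with 1 replicate, as the signal scale differs between lists. No paired analysis was possible because there is 1 group. Depth is unknown, so a host without a summit is not shown to be unbound.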

Other observations

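The snoRNA genes were spread over the arms unevenly, with 96 of 269 on 2R, 52 on 3L, 48 on 3R, 41 on 2L, 31 on X and 1 on chromosome 4. Summits within 1 kb were found at 24 of 96 on 2R (25.0%), 11 of 52 on 3L (21.2%), 12 of 48 on 3R (25.0%), 7 of 41 on 2L (17.1%) and 5 of 31 on X (16.1%), with none at the 1 on chromosome 4. By host, 13 of 23 on 2R were bound (56.5%, interval 34.5 to 76.8) and 47 of 72 elsewhere (65.3%, interval 53.1 to 76.1). The share of all genes was not counted arm by arm. Differences between arms are therefore not shown to be particular to snoRNA genes or their hosts.

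Host genes also held summits away from their start sites. Of 77 thresholded summits inside host genes 35 lay within 500 bp of a host start (45.5%). Of all 7223 thresholded summits 3135 lay within 500 bp of a start site of any gene, which is a wider rule. Summits inside other genes were not counted in the same way, so this share is not shown to be particular to hosts. Of the snoRNA genes near a summit that is not at a host start, snoRNA:lola-a lies 757 bp before one with 139 in replicate 1, 156 in replicate 2 and 291 pooled. Likewise, snoRNA:Me18S-G1358a in drn lies 828 bp past one with 130.4 and 184 in the replicates and 319 pooled. Among the 22 snoRNA genes without a host, 10 lie under a gene on the opposite strand.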
